A study of Homo sapiens with 4 samples.

Results

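Galectins are a family of proteins that bind β-galactosides. The genes described here are LGALS1, LGALS3, LGALS8 and LGALS9, together with LGALS3BP, which encodes a secreted glycoprotein that galectins bind. These 5 genes were taken by symbol from a table of 25268 gene symbols. They were chosen by the values of LGALS1, which is very abundant and is lower in Dox-treated MYC cells, so its level and its fall are given as a description and not as a test. The cells were of SK-MEL-28, a human melanoma line in wide use, and carried, after lentiviral transduction, either an empty pTRIPZ vector (vector cells) or MYC behind a Tet-inducible promoter (MYC cells). Both had been selected with geneticin and were grown in medium with G418. Each was sequenced untreated and after exposure to 0.5 μg/ml doxycycline (Dox) for 54 h, which turns the promoter on and which vector cells received as a control for the drug itself. There were 4 libraries, 1 per condition, so nothing here can be checked against replicates and no p-value is printed. The sources used here do not state whether the transduced cells were a clone or a pool.

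Galectins are made without a signal peptide and act both inside the cell and, after release by an unconventional route, on the glycans of the cell surface. Galectin-1, the LGALS1 product, forms a dimer of single-domain subunits. Galectin-3, the LGALS3 product, joins its carbohydrate-binding domain to a flexible tail, and galectin-8 and galectin-9 each hold a pair of such domains in 1 chain. Melanoma cells are known for high galectin-1 and galectin-3, which take part in adhesion, migration and the restraint of T cells.

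The values are FPKM (fragments for each kilobase of a transcript and each 1000000 fragments mapped) as deposited. The Dox response of a gene is its log2(FPKM + 0.1) after Dox minus that of the untreated culture, a scale that understates the change of low genes. The approximate depth ranged from 35000000 fragments in Dox-treated vector cells to 42000000 in untreated MYC cells. MYC had 58.3 FPKM in untreated and 54.8 FPKM in Dox-treated vector cells, and 76.5 and 87.1 FPKM in MYC cells. Its Dox response was 0.19 in MYC cells and -0.09 in vector cells, short of 1.5-fold in the library labelled as induced. MYC was already higher in untreated MYC cells than in untreated vector cells. With Dox in both lines it had 87.1 FPKM in MYC cells and 54.8 FPKM in vector cells. For its MYC-inducible SK-MEL-28 cells, the paper reports more MYC mRNA by RT-PCR and a higher E-box reporter activity after Dox. All 8 melanocyte markers checked, among them SOX10, MITF and PMEL, reached a 4-library mean of 1 FPKM, whereas 3 of the 19 markers of fibroblasts, immune cells, endothelium and epithelium did. COL3A1, TYROBP and KRT5 were at 0 in all 4 libraries.

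RefSeq promoter windows of GRCh38.p14, of 250 bases before a transcription start, were read for LGALS3, LGALS8, LGALS9 and LGALS3BP. The sources used here held no window for LGALS1, so its promoter was not read. The windows of the next most abundant members after LGALS1 are shown, because LGALS3 and LGALS3BP differ in their Dox response. As it turned out, their windows also differ in base composition, and a link between sequence and Dox response was not tested. The LGALS3 window is chr14:55129002-55129251 on the plus strand and the LGALS3BP window is chr17:78979924-78980173 on the minus strand. Capitals mark the GC box GGGCGG on either strand in the first and a pair of GAAA separated by any 2 bases, a form found in interferon-response elements, in the second.
LGALS3: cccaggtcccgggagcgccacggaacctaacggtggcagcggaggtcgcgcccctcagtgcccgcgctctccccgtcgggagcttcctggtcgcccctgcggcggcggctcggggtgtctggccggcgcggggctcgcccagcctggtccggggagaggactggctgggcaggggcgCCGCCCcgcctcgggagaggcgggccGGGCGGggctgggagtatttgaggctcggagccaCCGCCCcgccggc
LGALS3BP: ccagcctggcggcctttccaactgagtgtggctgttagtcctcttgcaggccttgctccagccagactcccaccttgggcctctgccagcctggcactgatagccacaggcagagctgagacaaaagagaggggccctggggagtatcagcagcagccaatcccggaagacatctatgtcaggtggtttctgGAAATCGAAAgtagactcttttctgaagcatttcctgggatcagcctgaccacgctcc
The LGALS3 window had a GC content of 78.8% and 3 copies of GGGCGG, a motif found in 42.6% of 35116 windows of this length. The LGALS3BP window had a GC content of 56.8%, no GGGCGG and 1 copy of the paired GAAA, which 3.02% of windows hold. CACGTG, the E-box letters bound by MYC with MAX, was in none of the 6 windows of the 4 genes, which do not include LGALS1. It was present in 6.34% of all windows. The motifs were searched on both strands and were picked with the sequences in view, and a match or its absence in 250 bases is a description of the letters.

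LGALS1 lies on chromosome 22 of GRCh37 from 38071643 to 38075809 on the plus strand, with 7 annotated transcripts. It had 5064 FPKM in untreated vector cells, 5659 FPKM in Dox-treated vector cells, 4843 FPKM in untreated MYC cells and 1414 FPKM in Dox-treated MYC cells. Only the library of Dox-treated MYC cells was low, and the other 3 libraries lay between 4843 and 5659 FPKM. LGALS1 was the 9th most abundant of the 25268 symbols in both untreated libraries, the 7th in Dox-treated vector cells and the 89th in Dox-treated MYC cells. It made up 0.721% of the FPKM sum in untreated and 0.796% in Dox-treated vector cells, 0.700% in untreated MYC cells and 0.198% in Dox-treated MYC cells.

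The Dox response of LGALS1 was -1.78 in MYC cells, that is 3.43-fold lower. Its approximate counting error was 0.00951, since the values rest on roughly 107000 fragments without Dox and 29300 with Dox. Such an error reflects the number of fragments alone and holds no difference between cultures. In vector cells the Dox response was 0.16, above that of 10037 of the 11147 genes whose 4-library mean reached 1 FPKM. Between the untreated cultures the difference was -0.06. With Dox in both lines, LGALS1 was 4.003-fold lower in MYC cells. These comparisons share libraries, so the low value enters each of those that use the library of Dox-treated MYC cells. Fewer cells that make LGALS1 and less LGALS1 RNA per cell cannot be told apart in bulk RNA.

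**Figure D1:**
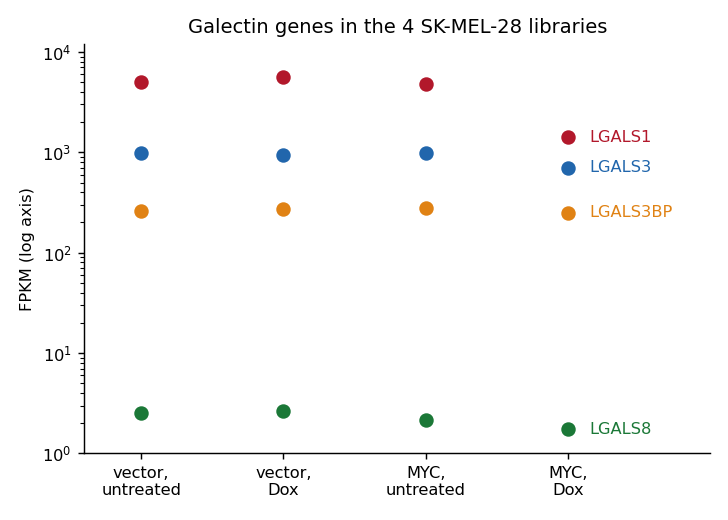
FPKM (log axis) of 4 of the genes in each of the 4 libraries, 1 point per library; LGALS9, at or near 0, is not drawn. LGALS1 stands between 4843 and 5659 FPKM in 3 libraries and at 1414 FPKM in Dox-treated MYC cells, and the order of the 4 genes is the same in every library.

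LGALS3, on chromosome 14 from 55590828 to 55612141 on the plus strand, was the second galectin by level. It had 983 FPKM in untreated vector cells, 946 FPKM in Dox-treated vector cells, 974 FPKM in untreated MYC cells and 700.4 FPKM in Dox-treated MYC cells. As for LGALS1, the last library was the low one. The Dox response was -0.48 in MYC cells, 1.39-fold lower, with an approximate counting error of 0.0115. In vector cells it was -0.06, and the untreated cultures differed by -0.01. LGALS3 therefore stayed short of 1.5-fold, and its place among all symbols went from 117 to 158.

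The level of LGALS1 moved further than that of LGALS3, so the ratio of their FPKM values differed between libraries. It was 5.15 in untreated vector cells, 5.98 with Dox, 4.97 in untreated MYC cells and 2.02 with Dox. A ratio within a library does not depend on how that library was scaled. Of the FPKM summed over LGALS1, LGALS3, LGALS8 and LGALS9, LGALS3 made up 16.7% in untreated MYC cells and 33.1% with Dox. The sum itself was 5819 FPKM untreated and 2116 FPKM with Dox.

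LGALS8, on chromosome 1 from 236681300 to 236716281 on the plus strand, encodes galectin-8, which binds glycans exposed on damaged vesicles inside the cell. It had 2.55 FPKM in untreated vector cells, 2.66 FPKM in Dox-treated vector cells, 2.15 FPKM in untreated MYC cells and 1.73 FPKM in Dox-treated MYC cells. Both libraries of MYC cells were below both libraries of vector cells. The Dox response in MYC cells was -0.30, with an approximate counting error of 0.0949 from about 538 and 405 fragments. In vector cells it was 0.06, with a counting error of 0.0853. Untreated MYC cells were already lower than untreated vector cells by 0.23 on the log2 scale (counting error 0.0859), and with Dox in both lines LGALS8 was 1.51-fold lower in MYC cells. Exons of LGALS8 overlap those of HEATR1 and LGALS8-AS1 on the opposite strand, and the sources used here do not say whether strand was used in the quantification. In MYC cells HEATR1 had 4.07 FPKM untreated and 6.57 FPKM after Dox, and its part in the value of LGALS8 was not tested.

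LGALS9, on chromosome 17 from 25956824 to 25976586, encodes galectin-9, a ligand of TIM-3, an inhibitory receptor of T cells. It was listed at 0 in both vector libraries, at 0.0154 FPKM in untreated MYC cells and at 0.0165 FPKM with Dox. These last values equal the worth of about 1 fragment each at the depth of their libraries. A count of 0 allows up to 3 fragments, which corresponds to 0.0499 FPKM in untreated vector cells and 0.0556 FPKM with Dox, so no difference was detectable at this depth and no fold is given. The near-identical copies LGALS9B and LGALS9C were at 0 in all 4 libraries, and how reads shared among these copies were handled is not given in the sources used here.

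LGALS3BP, on chromosome 17 from 76967320 to 76976029 on the minus strand, had 260 FPKM in untreated vector cells, 270 FPKM in Dox-treated vector cells, 279 FPKM in untreated MYC cells and 250.1 FPKM in Dox-treated MYC cells. All 4 libraries lay within this narrow range, with MYC cells highest without Dox and lowest with Dox. The Dox response was -0.16 in MYC cells and 0.05 in vector cells, with approximate counting errors of 0.0133 and 0.0139. LGALS3 had 3.49 times the FPKM of LGALS3BP in untreated MYC cells and 2.80 times with Dox.

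The order of levels was LGALS1, LGALS3, LGALS3BP, LGALS8 and LGALS9 in every library. The ranges over the 4 libraries did not overlap between neighbours in this order. The lowest LGALS1 value, in Dox-treated MYC cells, was still above the highest LGALS3 value.

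A gene is called expressed here when its 4-library mean reached 1 FPKM. Of the 5 genes, 4 were expressed, and each of the 4 was above 1 FPKM in every library. After Dox in MYC cells, 1 of these 4, LGALS1, was at least 1.5-fold lower, and none was higher, beside 8.85% lower and 5.9% higher of the 11147 expressed genes, and since this contrast was used to choose the genes nothing is read from the count. The 4 had a median Dox response of -0.39 there, beside -0.03 over all expressed genes. This median includes LGALS1, chosen for its fall. Of the 11147 expressed genes, 1411 had a lower Dox response than LGALS3, 2582 than LGALS8 and 3953 than LGALS3BP. In vector cells, none of the 4 reached 1.5-fold, beside 0.44% of genes lower and 0.709% higher, and their median Dox response was 0.06, beside 0.01 over all expressed genes. None of the 4 reached 1.5-fold between the untreated cultures either, where the shares of all genes were 0.287% lower and 0.592% higher. With Dox in both lines, 2 of the 4, LGALS1 and LGALS8, were at least 1.5-fold lower in MYC cells and none was higher, beside 8.62% and 6.5% of genes. LGALS8 passed this threshold narrowly, at a difference of -0.59 with a counting error of 0.0943, and no longer did so with a pseudocount of 1, at -0.42, or with median ratio scaling, at -0.58.

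**Figure D2:**
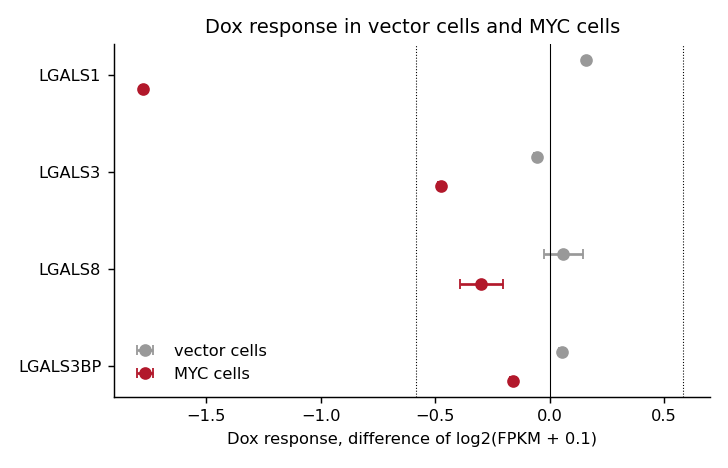
The Dox response of 4 genes in vector cells (grey) and MYC cells (red); bars are 1 approximate counting error, often smaller than the point, and dotted lines mark 1.5-fold. LGALS1, chosen for its fall, is at -1.78 and is the only point past a dotted line.

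The difference of the Dox responses, MYC cells minus vector cells, was -1.94 for LGALS1, -0.42 for LGALS3, -0.36 for LGALS8 and -0.21 for LGALS3BP. The approximate counting error was 0.0114 for LGALS1, 0.0160 for LGALS3, 0.128 for LGALS8 and 0.0192 for LGALS3BP. The robust SD of this difference over all expressed genes was 0.36, which describes the spread across genes and not between replicates. Since LGALS1 was chosen for its fall in this contrast, nothing is read from its place against that spread.

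LGALS1 was chosen for its high level and its fall, so its places below describe that choice and nothing is read from them. Of the 11147 expressed genes, 28 had a lower Dox response in MYC cells, and the most abundant of these 28, FCRLA, had a mean of 25.2 FPKM, against 4245 FPKM for LGALS1. The mean of 116 genes reached 1000 FPKM. Of these, 8 were at least 1.5-fold lower and 3 at least 1.5-fold higher in MYC cells, beside 8.85% and 5.9% of expressed genes. None of the 116 reached 1.5-fold in vector cells, beside 0.44% of expressed genes lower and 0.709% higher. LGALS1 had the lowest change of the 116, followed by MT2A, a metallothionein, at -1.35 and CD63, a tetraspanin of endosomes and melanosomes, at -1.09. In FPKM units, the decrease of LGALS1 was larger than that of any other symbol, at -3430, and that of LGALS3 was the 23rd, at -273. The level of these abundant genes was read off here because LGALS1 is among them, and the floor of 1000 FPKM was set after the values were known.

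**Figure D3:**
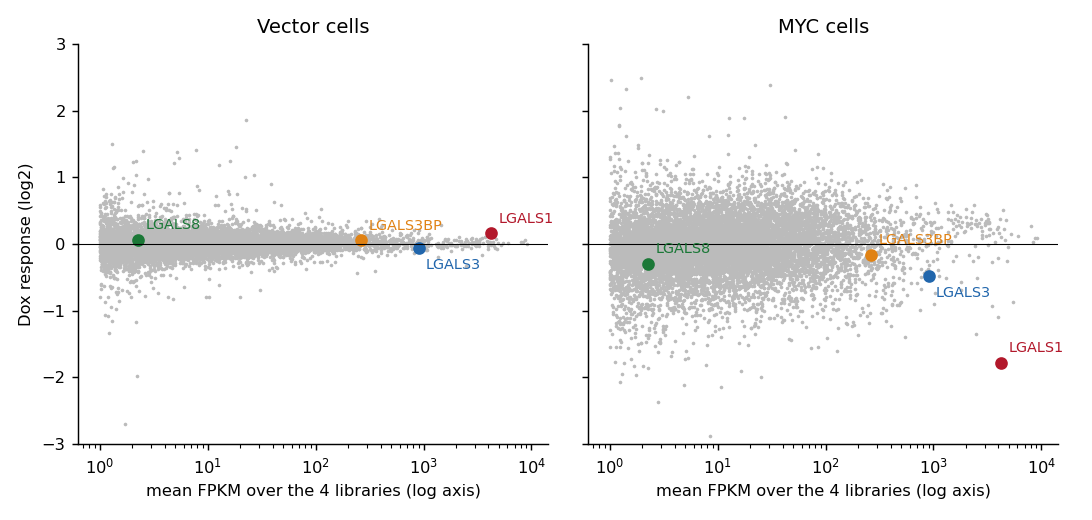
Mean FPKM over the 4 libraries (log axis) against the Dox response for the 11147 expressed genes (grey points) in vector cells (left) and MYC cells (right), with 4 genes marked; 19 genes on the left and 36 on the right lie beyond the axis limit of 3 and are not drawn. In the right panel LGALS1, chosen for its level and its fall, lies low at the high end of expression. LGALS3, LGALS3BP and LGALS8 lie inside the cloud.

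Melanocyte genes moved in the same library. Their summed level was 8578 FPKM in untreated vector cells, 8467 FPKM with Dox, 8433 FPKM in untreated MYC cells and 4666 FPKM with Dox, and 5 of the 8 were at least 1.5-fold lower in Dox-treated MYC cells, beside 8.85% of all expressed genes. PMEL, a melanosome matrix protein, made up most of the summed level, with 6178 FPKM in untreated MYC cells and 3394 FPKM with Dox. Its Dox response was -0.86, beside -0.30 for SOX10, the lineage factor, and -1.39 for S100B, a calcium-binding protein. Over the same libraries the summed level of the 6 fibroblast markers ranged from 26.1 to 31.6 FPKM, nearly all of it LUM, and that of the 6 immune markers from 1.06 to 1.79 FPKM. The 3 endothelial markers summed to between 0.0981 and 0.114 FPKM. Among the 4 epithelial markers, EPCAM had 0.726 FPKM untreated and 2.71 FPKM after Dox in MYC cells, the only marker of another cell type that was at least 1.5-fold higher there. EPCAM was below 1 FPKM in the other 3 libraries and counted as expressed through that library alone. LYZ, which encodes lysozyme and made up most of the immune sum, had 1.75 FPKM untreated and 0.997 FPKM with Dox in MYC cells. Its Dox response there was -0.76, with an approximate counting error of 0.234. The part of these genes in the change of LGALS1 was not tested.

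The 5 genes whose pattern over the 4 libraries was nearest to that of LGALS1 were CTSG, RAB4B, CST1, CDKN1A and DKK1. The measure was the Euclidean distance between log2(FPKM + 0.1) values centred on each gene's mean, over 4 libraries and 7473 genes whose mean reached 5 FPKM. The distances were 0.237 for CTSG, 0.240 for RAB4B, 0.265 for CST1, 0.266 for CDKN1A and 0.299 for DKK1, and the median distance was 1.64. All were far less abundant than LGALS1. CTSG, a serine protease, had 20.7 FPKM untreated and 5.48 FPKM after Dox in MYC cells. RAB4B, a small GTPase of recycling endosomes, had 20.9 and 7.22 FPKM, and CST1, a cystatin that inhibits cysteine proteases, had 85.4 and 29.0 FPKM. CDKN1A, which encodes the cyclin-dependent kinase inhibitor p21, had 13.7 and 3.03 FPKM. DKK1, a secreted inhibitor of Wnt signalling, had 9.27 and 3.18 FPKM. With 4 libraries of which 1 stands apart, the likeness rests mostly on that library.

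**Figure D4:**
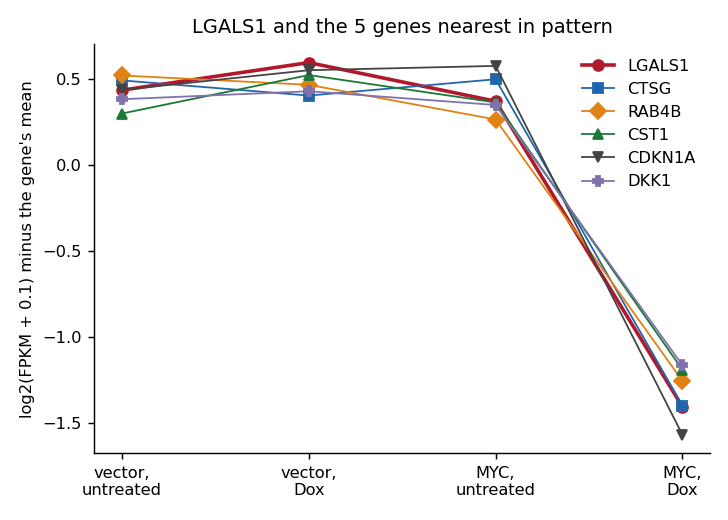
Centred log2(FPKM + 0.1) of LGALS1 (thick red) and the 5 genes nearest to it in each of the 4 libraries; lines join the values of a gene. Each gene lies above its mean in 3 libraries and between -1.57 and -1.16 in Dox-treated MYC cells.

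The remaining galectin genes were almost silent. Of 13 further family members, LGALSL, a galectin-related gene, alone was expressed, with 3.51 and 3.24 FPKM in vector cells and 3.36 and 3.25 FPKM in MYC cells, without and with Dox. Its Dox response was -0.05 in MYC cells. The genes LGALS4, LGALS7, LGALS7B, LGALS9B, LGALS9C, LGALS14, LGALS16 and GRIFIN, 8 in all, were at 0 in every library, and the other 4 reached at most 0.102 FPKM.

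Galectins read N-acetyllactosamine chains on branched N-glycans, which are made in the Golgi by mannosidases, N-acetylglucosaminyltransferases and galactosyltransferases and are capped by sialyltransferases. Of 21 genes of these enzymes, 17 were expressed, and after Dox in MYC cells 1 of the 17 was at least 1.5-fold lower and none was higher, beside 8.85% and 5.9% of all expressed genes. Their median Dox response was -0.27 in MYC cells and -0.01 in vector cells, beside -0.03 and 0.01 over all expressed genes. ST3GAL1, a sialyltransferase that caps mainly O-glycans, was the gene past 1.5-fold, with 5.35 FPKM untreated and 3.28 FPKM with Dox. It was also lower after Dox in vector cells, at a Dox response of -0.32. MGAT5, whose branch is the favoured site of long lactosamine chains, had 27.6 FPKM untreated and 22.6 FPKM with Dox, a Dox response of -0.29. The galactosyltransferases went both ways, with -0.57 for B4GALT1 and 0.52 for B4GALT2.

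Glycoproteins that galectins bind at the cell surface, in the matrix or in lysosomes showed the lowest median of the lists of enzymes and partners. Of 25 genes, 17 were expressed, and 9 of the 17 were at least 1.5-fold lower after Dox in MYC cells, beside 8.85% of all expressed genes. None was at least 1.5-fold higher, beside 5.9% of all expressed genes. In vector cells none passed 1.5-fold in either direction, beside 0.44% of all expressed genes lower and 0.709% higher. Their median Dox response was -0.59 in MYC cells and -0.02 in vector cells. The lists were chosen with earlier results of these data known, so nothing is read from this count or median. ITGA3, the α chain of a laminin-binding integrin, had 6.17 FPKM untreated and 1.80 FPKM with Dox, a Dox response of -1.72 with an approximate counting error of 0.0876. CSPG4, a proteoglycan of the melanoma cell surface, had 24.6 and 10.3 FPKM, a Dox response of -1.25. MCAM, an adhesion molecule of melanoma, went from 190 to 83.2 FPKM and FN1, fibronectin, from 205 to 89.7 FPKM, with the same Dox response of -1.19. L1CAM, ITGA7, ITGB1, ITGAV and P4HB made up the rest of the 9, with Dox responses between -1.09 and -0.59. Of the lysosomal proteins, LAMP1 had a Dox response of -0.18 and LAMP2 of -0.55. The immunoglobulin-family protein BSG had -0.06. SLC3A2, at 0.19, was the only expressed gene of the list that was higher to any extent. The T cell glycoproteins SPN, CD7 and PTPRC had at most 0.064 FPKM.

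**Figure D5:**
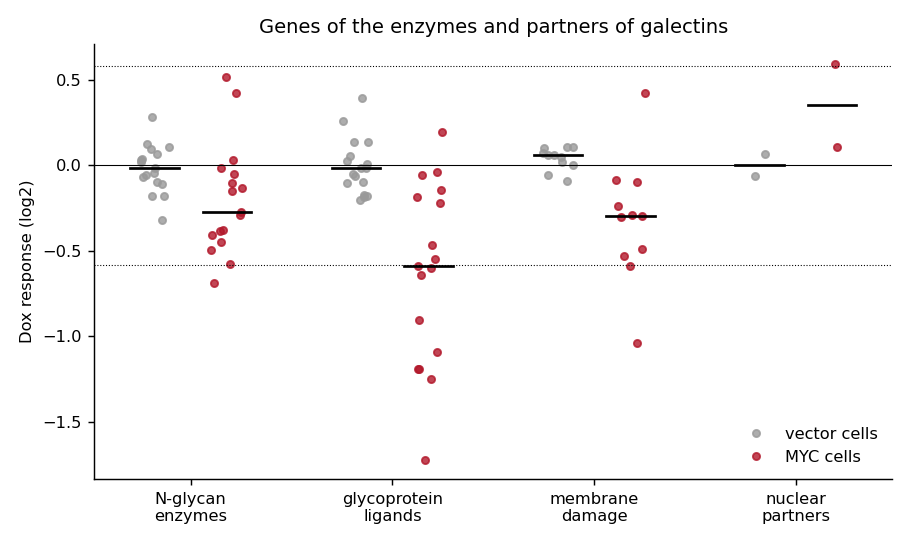
The Dox response of expressed genes in 4 lists of galectin-related enzymes and partners, 1 point per gene, in vector cells (grey) and MYC cells (red); black bars are medians and dotted lines mark 1.5-fold. The glycoprotein ligands have their MYC-cell median at -0.59, and the grey points of all lists stay inside the dotted lines.

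Inside the cell, galectin-3, galectin-8 and galectin-9 gather on ruptured endosomes and lysosomes, where galectin-8 recruits the autophagy receptor encoded by CALCOCO2. Of 13 genes of this response, 11 were expressed, and 2 of the 11 were at least 1.5-fold lower after Dox in MYC cells and none higher, beside 8.85% and 5.9% of all expressed genes. The median Dox response was -0.30 in MYC cells and 0.06 in vector cells. GABARAPL1, a ubiquitin-like autophagy protein, had 13.1 FPKM untreated and 6.31 FPKM with Dox, a Dox response of -1.04. OPTN, an autophagy receptor, had 10.7 and 7.10 FPKM, a Dox response of -0.59. CALCOCO2 itself had 9.77 FPKM with Dox, at a Dox response of -0.30.

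Galectin-1 and galectin-3 also hold RAS proteins in clusters at the plasma membrane. HRAS encodes the RAS protein that galectin-1 binds, and its Dox response in MYC cells was -0.05. HRAS had 96.4 FPKM untreated and 92.8 FPKM with Dox. The Dox response in MYC cells was -0.09 for NRAS, another RAS protein, and -0.04 for ARAF, a kinase downstream of RAS, so none of these 3 genes reached 1.5-fold. In the nucleus, both galectins have been found with the products of GEMIN4, a component of the SMN complex, and GTF2I, a transcription factor. GEMIN4 had 13.8 FPKM untreated and 20.8 FPKM after Dox in MYC cells, a Dox response of 0.60, and GTF2I had 5.95 and 6.42 FPKM, a Dox response of 0.11. In vector cells the Dox response was 0.07 for GEMIN4 and -0.06 for GTF2I.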

How the data were processed

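RNA of the 4 cultures was sequenced on a HiSeq4000. The authors deposited FPKM values per gene, and the submitters' processing notes name TopHat2 2.0.14, Cufflinks, hg19 and GRCh37; the annotation is not given in the sources used here. The table had 27032 rows. A row whose name was 0 was dropped, and the rows of 609 repeated symbols were added up, although each galectin described had 1 row. FPKM values are not counts and each condition has 1 library, so no model was fitted and nothing was tested. Percentages of genes called use genes whose 4-library mean reached 1 FPKM.

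FPKM values keep no depth. It was estimated from 2380 of 3665 low genes (under 0.2 FPKM) whose values were whole multiples of 1 step, within 1.2% and up to 12 steps. Annotated lengths of 224 genes with a single transcript of at least 1500 bases gave the scale, with quartiles of 34400000 and 40700000 fragments for untreated vector cells. Counting errors are therefore approximate; for fragments per gene the MANE Select transcript length was used where annotated. Positions are from GENCODE release 44 on GRCh37.

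The members and lists were chosen with earlier results of these data known. Named genes were the members, MYC, up to 4 genes of a list past 1.5-fold in each direction in MYC cells, the expressed signalling and nuclear partners (some of these are not reported here), and the 5 genes nearest to LGALS1; others named as examples were chosen after their values were seen. The alternatives were pseudocounts of 1 and 0.01, 3 scalings, the highest row of a symbol, Dox-treated vector cells as reference, and for counts also no filter, a filter at 5 FPKM and a 2-fold threshold. The calculations were tested on simulated data. Software: numpy 2.4.6 and pandas 2.3.3 for the calculations and matplotlib 3.10.9 for the plots, under Python 3.11.15.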

Additional observations from a re-analysis of the deposited data

Results flagged for a closer look

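With 1 library per condition, an expressed gene named in the text is listed here when its Dox response had opposite signs in MYC cells and vector cells, and the difference between the cells was not tested. The difference of the Dox responses, MYC cells minus vector cells, was -1.94 for LGALS1, -0.36 for LGALS8 and -0.21 for LGALS3BP, and 0.28 for MYC. LGALS3 is not listed, as it was lower in both. Among the glycoproteins that galectins bind, the difference was -1.73 for ITGA3, -1.39 for CSPG4, -1.30 for ITGA7, -0.21 for LAMP1 and -0.11 for BSG. Among the other partners it was -1.10 for GABARAPL1, -0.60 for OPTN, -0.41 for CALCOCO2, -0.15 for HRAS, -0.12 for NRAS, -0.078 for ARAF and 0.17 for GTF2I. For the cell type markers it was -0.47 for MITF, -0.88 for PMEL and -1.12 for LYZ, which was low in all 4 libraries. Among the genes nearest to LGALS1 in pattern it was -1.78 for CST1, -2.26 for CDKN1A and -1.56 for DKK1. In vector cells the responses of these genes lay between -0.09 for MYC and 0.40 for ITGA7, and some were close to 0, such as 0.0041 for OPTN.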

How the results depend on the processing

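No paired analysis was possible because no condition has more than 1 library. The galectin values were recalculated 100 times under 6 or 7 alternatives each, and 97 moved by less than the robust SD of the Dox response in vector cells over the 500 genes nearest in mean expression. For the difference of the Dox responses this SD was widened by the square root of 2. The 97 include the highest row of a symbol, which could not move any value because each galectin had 1 row. Of the exceptions, 2 came from taking Dox-treated vector cells as the reference for Dox-treated MYC cells, which gave -2.001 for LGALS1 and -0.59 for LGALS8. The third was LGALS8 between the Dox-treated cultures, at -0.42 in place of -0.59 with a pseudocount of 1; the alternatives for that comparison were chosen after seeing the data. The -0.59 of LGALS8 with Dox-treated vector cells as the reference follows in part from the lower level of untreated MYC cells. No sign changed. Over the alternatives the response in MYC cells ranged from -2.001 to -1.75 for LGALS1, from -0.52 to -0.43 for LGALS3, from -0.59 to -0.21 for LGALS8 and from -0.21 to -0.11 for LGALS3BP. No scaling shifted the median of all genes by more than 0.05. The counts of genes behind the percentages depended on the filter, the threshold and the pseudocount, which change the genes tested or the call itself. In MYC cells, 658 genes were higher and 986 lower; the counts were 1138 and 1748 with no filter, 436 and 549 with a filter at 5 FPKM, and 117 and 228 at 2-fold. In vector cells, 79 were higher and 49 lower; the counts were 529 and 387 with no filter, 25 and 8 with a filter at 5 FPKM, 43 and 22 when the pseudocount was 1, and 28 and 15 at 2-fold. LGALS9, at about 1 fragment or 0, is below what this depth can compare.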
